A study of Mus musculus with 2 samples.

Results

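The genes described here are 9 genes of the macrophage, found by their symbols among the 54532 genes of the deposited expression table. They are Adgre1 and Itgam, which encode the 2 surface proteins used to sort the cells, and 7 genes commonly used to recognise macrophages, namely Itgb2, Csf1r, Cd68, Lyz2, Cd14, Mertk and Sirpa. All 9 were found once each. RNA sequencing was done on macrophages that the study had sorted from digested aortas with antibodies to F4/80 and CD11b. All mice were male, on the C57BL/6J background, carried the ApoE-/- genotype, with an age of 6 weeks in the labels. The PDR group, for Phlegm-Dampness Retention, had 4 weeks of high-fat feeding. The SKYD group, for Spleen and Kidney Yang Deficiency, received 10 mg/kg of propylthiouracil daily for 4 weeks, which blocks the making of thyroid hormone, and then a high-fat diet for 2 weeks.

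There was 1 library a group, made from a pool of the sorted cells of 5 mice, since the yield per mouse was too low to sequence. No difference below has a replicate check, no p-value is given, and the syndrome cannot be told apart from the drug, the length of the diet or the age of the mice. A bulk library also does not tell fewer cells of a type from less RNA per cell. The values are FPKM, that is, fragments scaled by gene length and library size, which allow levels to be compared between genes. Reads behind the FPKM values were recovered from the steps in the table itself, and they sum to 23086889 on genes for PDR and 25427863 for SKYD. Apoe, the gene inactivated in these mice, was read in both libraries, with 17336 reads (345.2 FPKM) in PDR and 3618 (67.7 FPKM) in SKYD. A count over the whole gene does not show which exons were read, and so does not check the deletion.

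F4/80, the product of Adgre1, is an adhesion receptor of the surface of mouse macrophages. CD11b, the product of Itgam, is an integrin alpha chain, which reaches the surface together with CD18, the beta chain made from Itgb2, and binds complement fragments and ICAM1. It is shared by monocytes, macrophages and neutrophils. CSF1R carries the signal on which most tissue macrophages depend, CD68 lies in the membrane of lysosomes, and Lyz2 encodes the lysozyme of myeloid cells. CD14 passes bacterial lipopolysaccharide to TLR4, MERTK binds ligands that coat dying cells, and SIRPA binds CD47 on other cells and restrains their uptake.

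Of the 9 genes, 7 had lower values in the PDR library and 2 had higher values, with a change of sign for Adgre1 under 1 other scale. Cd14 was the only one past 2-fold. As a ratio of FPKM values, it was 6.30-fold higher in SKYD (95% interval 6.13 to 6.49). Lyz2, Itgam, Mertk and Cd68 were 1.86-fold, 1.62-fold, 1.60-fold and 1.5-fold higher in SKYD. Csf1r and Sirpa were 1.28-fold and 1.39-fold higher in PDR. Adgre1, in contrast, differed by 1.07-fold. The 2 sort markers thus stood in a different proportion to each other in PDR and in SKYD.

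The comparison used the 10399 genes whose mean FPKM was 1 or more, and all 9 genes were among them. Differences are given as log2(FPKM + 1) in PDR minus that in SKYD, which understates the change of genes with low values. The 1 gene past 2-fold is 11.1% of the 9, while 14.3% of all tested genes were past 2-fold in either direction, 6.91% toward SKYD and 7.38% toward PDR. That count is therefore no result about the list. At 1.5-fold on this scale, 3 of the 9 genes and 30.2% of all tested genes were past the threshold. Mertk, 1.60-fold apart as a ratio, fell just short at -0.581, but was past it at -0.665 with a pseudocount of 0.1. When differences were centred on Ptprc, which encodes the leukocyte protein CD45, 2 of the 9 were past 2-fold, with 16.7% of all tested genes. The median difference was -0.58 for the 9 genes and 0.00 for all tested genes, of which 50.4% were lower in PDR. Intervals are exact (Clopper-Pearson) 95% limits on how the reads of a gene split between the libraries. They reflect counting error only and say nothing of how mice differ.

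**Figure D1:**
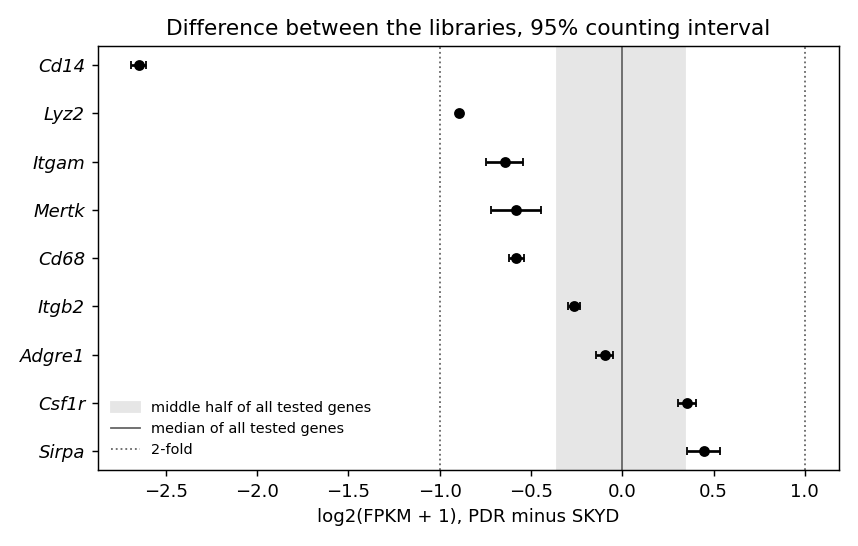
Differences of the 9 genes between the libraries, as log2(FPKM + 1) in PDR minus that in SKYD, with 95% counting intervals. The grey band runs from the lower to the upper quartile of all tested genes and the dotted lines mark 2-fold; Cd14 lies at -2.65 and the other genes between -0.90 and 0.45.

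The sort markers are described first. Adgre1 (ENSMUSG00000004730, chromosome 17 from 57358691 to 57483527, plus strand, GRCm38) had 6639 reads in the PDR library, or 87.3 FPKM, and 7551 in the SKYD library, or 93.3 FPKM. Its log2 difference was -0.10 (95% interval -0.14 to -0.05), which lies between the quartiles of all tested genes, -0.35 and 0.34. The sign of this small difference rests on the scale, since it was 0.02 when immunoglobulin, T cell receptor and haemoglobin genes were left out of the library size. Centring on Ptprc, which lowers every difference by 0.30, gave -0.40. Adgre1 stood at rank 904 of all genes by FPKM in PDR and at rank 852 in SKYD.

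Itgam (ENSMUSG00000030786, chromosome 7 from 128062640 to 128118491, plus strand) had lower levels, with 1043 reads in PDR and 1803 in SKYD. These are 8.84 and 14.4 FPKM, and the log2 difference was -0.64 (95% interval -0.74 to -0.54). The level in the table has a particular limit. In GENCODE M21, a second gene on the same strand, Gm49368, marked as a readthrough transcript, holds 3450 of the 5024 exonic bases of Itgam, or 68.7%. Gm49368 is a gene of the deposited table too, with 2 reads in PDR and 9 in SKYD. In its default mode, HTSeq gives a read that fits 2 genes to neither of them, and the mode used for this table is not stated.

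If the reads of Itgam came only from its 1574 unshared exonic bases, its level over those bases would be 28.2 FPKM in PDR and 45.8 FPKM in SKYD. This calculation was chosen after the values were seen. It multiplies both libraries alike and leaves their FPKM ratio as it is, but it bears on any level of Itgam set beside another gene. The part of the overlap in the low level of Itgam was not tested, because reads on the shared exons are not in the table. Among the 9 genes, the only other exonic overlap in GENCODE M21 is that of Csf1r with Hmgxb3 on the opposite strand, over 873 bases. The M21 model of Csf1r has 5774 exonic bases against a length of 4885 in the deposited table, where the positions of the 2 genes overlap by 871 bases, so the counted overlap is not known exactly. Hmgxb3 had 129 reads in PDR and 79 in SKYD, and the use of strand in counting is not stated.

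Itgb2 (ENSMUSG00000000290, chromosome 10 from 77530252 to 77565708), the beta chain that pairs with CD11b and with the other alpha chains of leukocytes, had 12531 reads in PDR and 16020 in SKYD. The levels were 174.8 and 210.0 FPKM, with a log2 difference of -0.26 (95% interval -0.30 to -0.23). Per length, Itgb2 stood at 19.8 times the level of Itgam in PDR and 14.6 times in SKYD. Over the unshared bases of Itgam alone, the same ratio would be 6.20 in PDR and 4.58 in SKYD.

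Csf1r (ENSMUSG00000024621, chromosome 18 from 61105572 to 61132149) and Sirpa (ENSMUSG00000037902, chromosome 2 from 129592835 to 129632228) were the genes with higher values in PDR. Csf1r had 6620 reads in PDR and 5486 in SKYD, at 57.7 and 44.9 FPKM, and a log2 difference of 0.35 (95% interval 0.30 to 0.41). Sirpa had 2087 and 1598 reads, at 18.1 and 13 FPKM, and a log2 difference of 0.45 (95% interval 0.36 to 0.53). Both kept this sign under each of 8 other scales and pseudocounts, but when differences were centred on the pan-leukocyte gene Ptprc they were reduced to 0.05 and 0.14. Ptprc is 1 of 5 pan-leukocyte genes compared, of which 3, with Ptprc, were higher in PDR and 2 were lower.

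Cd68 and Lyz2 stand for the lysosome and its lysozyme. Cd68 (ENSMUSG00000018774, chromosome 11 from 69664213 to 69666153, minus strand) had 7652 reads in PDR and 12191 in SKYD. At 259.2 and 388.0 FPKM, its log2 difference was -0.58 (95% interval -0.62 to -0.54). Lyz2 (ENSMUSG00000069516, chromosome 10 from 117277331 to 117282321, minus strand) had 686737 reads in PDR and 1359594 in SKYD. This gene alone took 2.97% of the reads on genes in PDR and 5.35% in SKYD, and by FPKM it was the gene at rank 2 in PDR and at rank 1 in SKYD. Its levels were 22217 and 41336 FPKM, and its log2 difference was -0.90 (95% interval -0.90 to -0.89).

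Cd14 had the largest difference of the 9 genes. It lies on chromosome 18 from 36725074 to 36726736 on the minus strand (ENSMUSG00000051439), with 5492 reads in PDR and 36838 in SKYD, or 148.7 and 937.6 FPKM. Its log2 difference was -2.65 (95% interval -2.69 to -2.61), and it moved from rank 544 in PDR to rank 77 in SKYD. Under the other scales and pseudocounts the value ranged from -2.95 to -2.53. In GENCODE M21, no 100-base window of its transcripts occurs in a transcript of another gene.

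Mertk (ENSMUSG00000014361, chromosome 2 from 128698956 to 128802894) had the lowest level, with 499 reads in PDR and 848 in SKYD. The levels were 4.90 and 7.83 FPKM, with a log2 difference of -0.58 (95% interval -0.72 to -0.44). This interval is the widest of the 9 genes, as Mertk had the fewest reads.

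**Figure D2:**
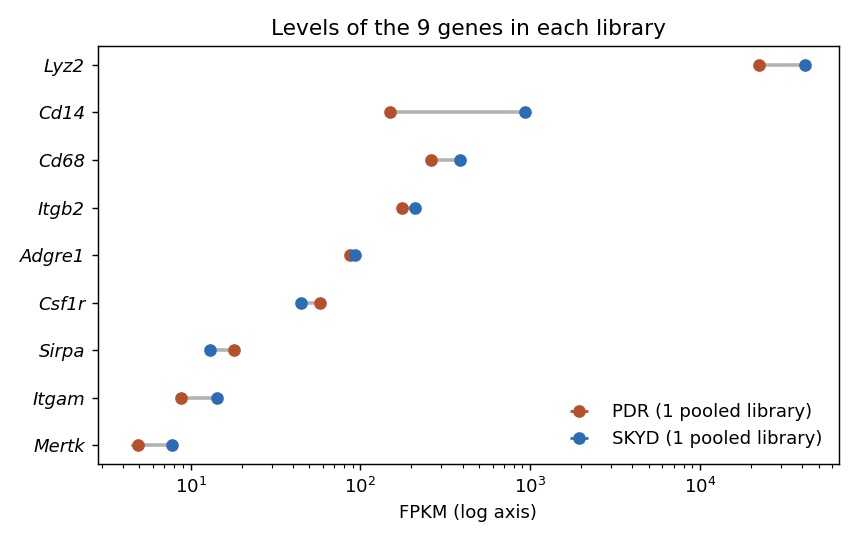
FPKM of the 9 genes on a log axis, with 1 point for each pooled library and 95% counting intervals, which are mostly narrower than the points. Lyz2 lies at 22217 and 41336 FPKM, Mertk lies at 4.90 and 7.83 FPKM, and the widest gap between libraries is that of Cd14.

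In the PDR library, the order of the levels from high to low was Lyz2, Cd68, Itgb2, Cd14, Adgre1, Csf1r, Sirpa, Itgam and Mertk. In the SKYD library, it was Lyz2, Cd14, Cd68, Itgb2, Adgre1, Csf1r, Itgam, Sirpa and Mertk. Thus, Cd14 was in the fourth place in PDR and in the second in SKYD, and Itgam and Sirpa changed places. Lyz2 stood 85.7 times above the next gene in PDR and 44.1 times in SKYD. The closest neighbours were Itgb2 and Cd14 in PDR, 1.18 times apart, and Itgam and Sirpa in SKYD, 1.10 times apart. No neighbouring genes had overlapping counting intervals in either library, but whether the order holds between mice cannot be known from 1 pool a group, and the place of Itgam also rests on its overlap with Gm49368.

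Ratios within a library do not depend on its size. Relative to Adgre1, 6 of the 8 other genes were lower in PDR and 2 were higher, with a median log2 difference of -0.53. On the same divisor, all tested genes had a median of 0.09. The level of Itgam was 0.101 times that of Adgre1 in PDR and 0.154 times in SKYD, a log2 difference of -0.60 (95% interval -0.72 to -0.48). Intervals of such differences are Woolf intervals from the reads of both genes. Cd14 stood at 1.70 times the level of Adgre1 in PDR and 10 times in SKYD, 5.90-fold apart. Lyz2 had 254.5 times the level of Adgre1 in PDR and 443.0 times in SKYD, and Cd68 had 2.97 and 4.16 times.

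On the same divisor, Csf1r was at 0.661 times the level of Adgre1 in PDR and 0.482 in SKYD, and Sirpa at 0.207 and 0.140. Both were higher in PDR, by 1.37-fold and 1.49-fold. Mertk was at 0.0561 and 0.0839 times Adgre1. The ratio of Itgb2 to Adgre1 was the closest between libraries, at 2 in PDR and 2.25 in SKYD, 1.12-fold apart. Of these 8 ratios, that of Cd14 was past 2-fold, while 9.02% of all tested genes were past 2-fold toward SKYD and 11.9% toward PDR on this divisor.

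Itgam itself was lower in PDR, so dividing by it moved all genes toward PDR. Of the 8 other genes, 6 were then higher in PDR and 2 were lower, with a median log2 difference of 0.28. On this divisor 84.1% of all tested genes were higher in PDR, at a median of 0.70, so most genes were higher on it, in the list or not. Csf1r stood at 6.53 times the level of Itgam in PDR and 3.13 times in SKYD, a log2 difference of 1.06 (95% interval 0.94 to 1.18). Sirpa stood at 2.05 and 0.907 times, a log2 difference of 1.17 (95% interval 1.03 to 1.32). These were the 2 ratios past 2-fold in the direction of PDR, while Cd14, at 16.8 times Itgam in PDR and 65.3 times in SKYD, was past 2-fold in the direction of SKYD. Of all tested genes, 30.9% were past 2-fold toward PDR and 4.88% toward SKYD on this divisor.

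Mertk, Cd68 and Lyz2 came closest to holding their proportion to Itgam. Mertk was at 0.554 times its level in PDR and 0.545 in SKYD, with a log2 difference of 0.02 (95% interval -0.17 to 0.22). Cd68 was at 29.3 and 27.0 times, with a log2 difference of 0.12. Lyz2 was at 2514 and 2879 times, with a log2 difference of -0.20 (95% interval -0.31 to -0.09). For Adgre1 the ratio was 9.88 in PDR and 6.50 in SKYD. The choice of the sort marker therefore set the sign of the median, and the levels in these ratios, though not their differences between libraries, carry the limit on Itgam given above.

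**Figure D3:**
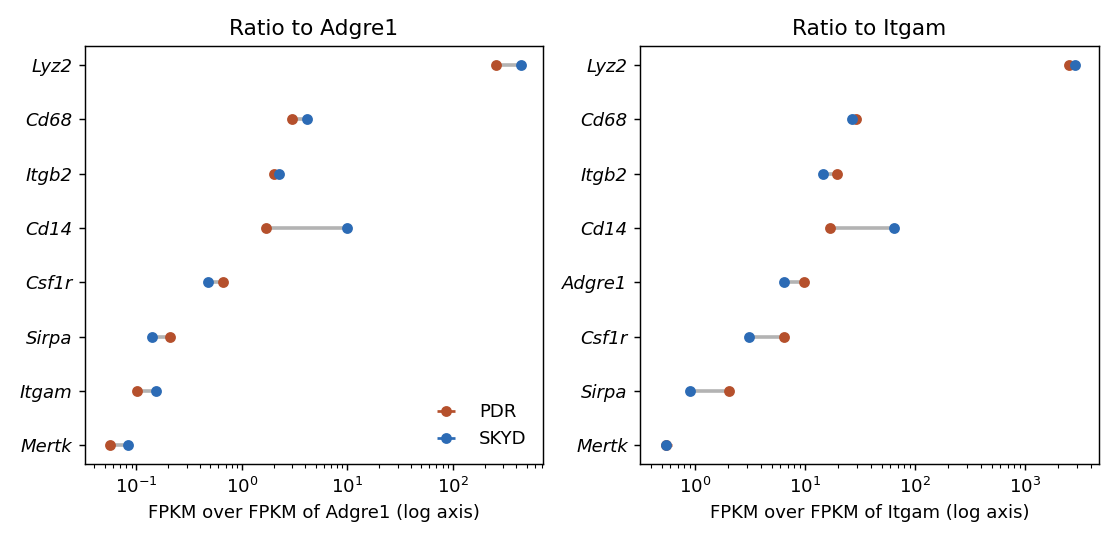
FPKM of each gene over that of Adgre1 (left) and of Itgam (right), on log axes, with 1 point for each pooled library and 95% counting intervals. Cd14 has the widest gap in both panels, and Mertk and Cd68 nearly coincide between libraries when divided by Itgam.

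By the distance of log2 differences over the 2 libraries, the 3 protein-coding genes nearest to Adgre1, among 3502 whose mean FPKM was 10 or more, included Ezr and Pih1d1. A total of 269 genes lay within 0.05 of Adgre1. The genes nearest to Itgam were Lpcat3, Prg2 and Ypel3, and 98 genes lay within 0.05 of it. With 2 libraries this measure has 1 value a gene and singles out little.

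Promoter sequences show where the annotated start of a gene lies and which short motifs stand before it. The table of RefSeq promoters (GRCm38.p6) used here was searched for 7 of the 9 genes. It had an entry for 4 of them, namely Itgam, Cd68, Mertk and Lyz2. It had none for Adgre1, Itgb2 and Sirpa. Csf1r and Cd14 were left out of this search, so whether they have an entry is not given here. Itgam, Cd68 and Mertk are printed for the 250 bases before the RefSeq start, since these genes had like differences, from -0.64 to -0.58. The RefSeq start of Itgam is that of the deposited table, while that of Cd68 lies 17 bases and that of Mertk 41 bases upstream of it. Capitals mark GAGGAA, a core that PU.1, the product of Spi1, can bind, or its form TTCCTC on the other strand. The windows are chr7:128062390-128062639 on the plus strand, chr11:69666171-69666420 on the minus strand and chr2:128698665-128698914 on the plus strand.
Itgam: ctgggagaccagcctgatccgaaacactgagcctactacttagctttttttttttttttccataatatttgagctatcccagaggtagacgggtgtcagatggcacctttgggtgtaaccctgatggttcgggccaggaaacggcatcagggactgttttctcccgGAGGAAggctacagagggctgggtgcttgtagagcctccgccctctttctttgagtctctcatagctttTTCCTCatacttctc
Cd68: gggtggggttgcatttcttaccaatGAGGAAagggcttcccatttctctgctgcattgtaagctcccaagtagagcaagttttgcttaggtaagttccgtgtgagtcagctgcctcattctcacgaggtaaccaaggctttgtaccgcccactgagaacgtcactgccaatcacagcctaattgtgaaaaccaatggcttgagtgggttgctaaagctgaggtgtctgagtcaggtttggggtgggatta
Mertk: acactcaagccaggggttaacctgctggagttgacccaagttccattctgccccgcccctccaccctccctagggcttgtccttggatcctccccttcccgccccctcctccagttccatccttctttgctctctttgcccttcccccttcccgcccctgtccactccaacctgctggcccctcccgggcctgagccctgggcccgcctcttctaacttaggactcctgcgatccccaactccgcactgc

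The Itgam window holds the motif at 2 places, starting 84 and 15 bases before the RefSeq start, and they do not overlap. The Cd68 window holds it once, 225 bases before its RefSeq start, and the Mertk window does not hold these letters. Of all 32851 windows of the same length, 23.3% hold the motif on either strand. A match of 6 letters is a description of the window, not a binding site, and its part in the differences of these genes was not tested. Spi1 itself had 108.3 FPKM in PDR and 179.1 in SKYD, a log2 difference of -0.72 (95% interval -0.76 to -0.68).

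Lyz2 has a close copy next to it, Lyz1, on the same strand of chromosome 10 from 117287797 to 117292868, which is known mainly from Paneth cells of the gut. Lyz1 had 14123 reads in PDR and 41050 in SKYD, or 476.1 and 1300 FPKM, and a log2 difference of -1.45 (95% interval -1.48 to -1.42). Of the 1217 windows of 100 bases in the Lyz2 transcript, 24 also occur in that of Lyz1, or 1.97%. Most stretches of that length thus differ between the copies, although shorter matches and mismatches allowed in alignment could still pass reads from one to the other. Reads of Lyz1 are uncertain for this reason, as Lyz2 had many times more. The copies also share sequence before their starts, as shown by the bases from 150 to 51 before each RefSeq start, chr10:117282323-117282422 for Lyz2 and chr10:117292919-117293018 for Lyz1, both on the minus strand. The RefSeq start of Lyz1 is that of the deposited table, while that of Lyz2 lies 49 bases inside the gene as the table gives it. Capitals mark the 79 of 100 positions with the same base when the windows are set side by side without gaps.
Lyz2: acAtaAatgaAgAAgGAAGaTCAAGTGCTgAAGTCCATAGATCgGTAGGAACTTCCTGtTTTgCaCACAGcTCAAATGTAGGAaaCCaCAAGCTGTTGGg
Lyz1: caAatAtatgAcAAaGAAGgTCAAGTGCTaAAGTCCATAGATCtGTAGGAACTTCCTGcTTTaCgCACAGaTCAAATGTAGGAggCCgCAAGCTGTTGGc

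The partners of the 9 proteins were taken from 7 lists that follow their roles. Of the 41 genes on them, 36 were tested, with 4 past 2-fold toward PDR, 3 past 2-fold toward SKYD and a median log2 difference of -0.08. The 7 genes past 2-fold are 19.4% of the 36, against 14.3% of all tested genes. The genes past 2-fold in PDR were Icam1, Adgre4, Irf8 and Cd180, and those in SKYD were Gas6, Lyz1 and Cd63. When differences were centred on Ptprc, 3 genes were past 2-fold toward PDR, without Irf8, and 9 toward SKYD, with Icam2, Spi1, Cebpa, Cebpb, Ly96 and Lbp added. These are 33.3% of the 36, against 16.7% of all tested genes, 5.01% toward PDR and 11.7% toward SKYD. With a pseudocount of 0.1, 4 were past 2-fold toward PDR and 5 toward SKYD, against 1057 and 1010 of the 10399 tested genes. Without antigen receptor and haemoglobin genes in the library size, 5 and 3 were, against 947 and 655 of 10655. The balance of the partner genes thus rests on the scale and the pseudocount.

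Among other chains, ligands and adaptors of the beta-2 integrins, 6 of 7 genes were tested, 3 on each side, with a median of -0.24. When centred on Ptprc, 1 was higher and 5 were lower, with a median of -0.54. The ligand genes stood on opposite sides. Icam1, whose product is induced on many cells in inflammation, had 15.1 FPKM in PDR and 5.43 in SKYD, 2.78-fold higher in PDR (95% interval 2.53 to 3.06). Icam2 had 147.9 and 284.9 FPKM, 1.93-fold higher in SKYD. Fermt3, which encodes the integrin activator kindlin-3, had a log2 difference of 0.13, and this became -0.18 when centred on Ptprc.

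The relatives of F4/80 also differed from each other and from Adgre1. Adgre4, a receptor of myeloid cells that lies in the same gene family, had 41.8 FPKM in PDR and 14.9 in SKYD, a log2 difference of 1.43 (95% interval 1.34 to 1.52). Adgre5, which encodes CD97, had 60.2 and 90.1 FPKM, a log2 difference of -0.57. The 3 genes of the family thus had differences of 1.43, -0.10 and -0.57, with the exception for the sign of Adgre1 given above.

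The list of CSF1R ligands, related receptors and myeloid transcription factors held 10 genes, of which 7 were tested, 1 higher and 6 lower in PDR, with a median of -0.26 that became -0.56 when centred on Ptprc. Irf8, a factor needed for monocytes and dendritic cells, was the higher one, at 33.6 FPKM in PDR and 13.4 in SKYD, 2.51-fold apart (95% interval 2.39 to 2.63). Cebpb, at 193.5 and 360.1 FPKM, had a log2 difference of -0.89, and Csf2ra, a receptor chain for GM-CSF, of -0.26. The ligand genes themselves had few reads. Csf1 had 7 in PDR and 22 in SKYD, and Il34 had 0 and 19, both chosen here after their values were seen.

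In the lipopolysaccharide receptor complex, the partners of CD14 stood on both sides. All 7 genes were tested, 3 higher and 4 lower in PDR, with a median of -0.06 that became 0.06 when immunoglobulin, T cell receptor and haemoglobin genes were left out of the library size, and -0.36 when centred on Ptprc. Ly96, which encodes the co-receptor MD-2, had 75.2 FPKM in PDR and 132.0 in SKYD, a log2 difference of -0.80 (95% interval -0.89 to -0.72). Lbp, which encodes the serum protein that hands lipopolysaccharide to CD14, had 6.48 and 13.4 FPKM, a log2 difference of -0.95. Tlr4 had 13.1 and 6.55 FPKM, a log2 difference of 0.90 (95% interval 0.79 to 1). The adaptor genes Myd88 and Ticam1 had differences of -0.33 and 0.47. Lbp, Tlr4 and Ticam1 were named after their values were seen. Cd180, which encodes a TLR4-like receptor found on B cells as well as on myeloid cells, was 5.46-fold higher in PDR (95% interval 4.58 to 6.54), while Ly86, the gene of its partner MD-1, had 159.9 and 166.3 FPKM.

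Around MERTK, 3 of 4 genes were tested and all 3 were lower in PDR, with a median of -0.51. For Axl, named after its values were seen, the difference was -0.06 with an interval across 0 (-0.18 to 0.07), and it became 0.05 without antigen receptor and haemoglobin genes in the library size. Gas6, which encodes a bridging ligand between MERTK and dying cells, had 1.42 FPKM in PDR and 4.84 in SKYD, 3.41-fold higher in SKYD (95% interval 2.67 to 4.38). Pros1, which encodes protein S, another such ligand, had 13.3 and 19.4 FPKM, a log2 difference of -0.51. Tyro3, the gene of a receptor of the same family, had 0 reads in both libraries, which allows up to 3 reads in each.

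The genes around SIRPA stood mostly on the side of Sirpa itself. Of 7 genes, 6 were higher in PDR and 1 was lower, none was past 2-fold, and the median was 0.36. When centred on Ptprc, 4 were higher and 3 were lower, with a median of 0.06. Ptpn6, which encodes the phosphatase SHP-1 that SIRPA recruits, had 185.4 FPKM in PDR and 113.8 in SKYD, a log2 difference of 0.70 (95% interval 0.66 to 0.74). Ptpn11, the gene of the other such phosphatase, SHP-2, was the 1 lower gene, with a difference of -0.64, and was named after its values were seen. Cd47, the gene of the ligand, had a difference of 0.36. Skap2, an adaptor gene counted among the 6 higher ones, had 0.00 with an interval across 0 (-0.06 to 0.06). Sirpb1a, Sirpb1b and Sirpb1c had differences of 0.83, 0.48 and 0.11. These 3 genes share from 23.0% to 39.3% of their 100-base windows with each other or with further genes, so the split of reads among them is uncertain, whereas no window of Sirpa was shared.

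Of the lysosome genes, Lamp1 and Lamp2 were close between libraries, with differences of -0.07 and -0.06 that became 0.04 and 0.06 without the antigen receptor and haemoglobin genes in the library size. Cd63, a membrane protein of late endosomes, had 13.4 FPKM in PDR and 39.0 in SKYD, 2.92-fold higher in SKYD (95% interval 2.73 to 3.12). With Lyz1, the median of these 4 genes was -0.76, and all 4 were lower in PDR in the main comparison.

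**Figure D4:**
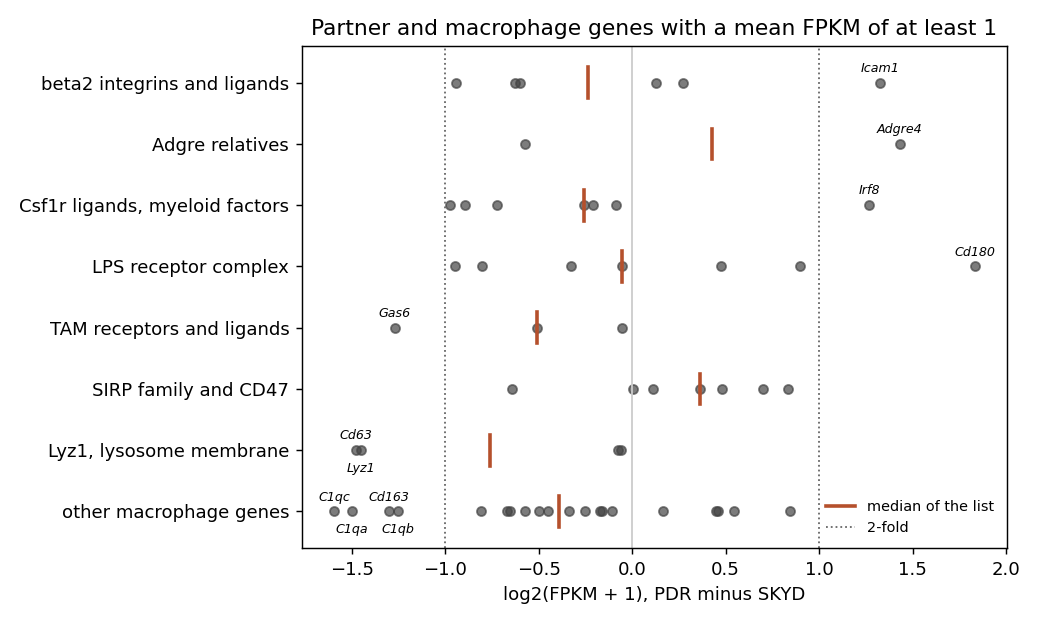
Log2 differences of partner genes and other macrophage genes, 1 point for each tested gene, in log2(FPKM + 1) of PDR minus SKYD, with the median of each list as a bar. Genes past 2-fold are named; Icam1, Adgre4, Irf8 and Cd180 lie on the side of PDR.

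The label of the cells was set against a further list of 20 macrophage genes. All 20 reached the minimum mean FPKM and had 95 reads or more in each library, and 15 were lower in PDR, with a median of -0.39. None was past 2-fold toward PDR and 4, or 20%, were past 2-fold toward SKYD, against 6.91% of all tested genes toward SKYD and 14.3% in either direction. These 4 were Cd163 and the complement genes C1qa, C1qb and C1qc, which lie close together on chromosome 4. By level, the list was led by Tyrobp, an adaptor of myeloid receptors, at 2908 FPKM in PDR and 4333 in SKYD, the cathepsin gene Ctss, at 2184 and 2439, and C1qb, at 1362 and 3240. The complement genes C1qc and C1qa, made by resident macrophages, had the lowest differences of the list on log2(FPKM + 1), -1.59 and -1.50. As a plain FPKM ratio, Cd163, named after its values were seen, was further apart. It was 4.44-fold higher in SKYD, against 3.03-fold for C1qc, at only 0.74 FPKM in PDR and 3.29 in SKYD. Marco, a scavenger receptor gene, and Fcgr1, a gene of the high-affinity IgG receptor, had the highest, 0.84 and 0.54.

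Lists for macrophages of single sites had lower values in PDR in most cases. The list of 4 peritoneal genes had a median of -1.37 and the list of 4 vessel-wall genes, led by Lyve1, of -1.20. The medians were -0.53 for 3 tested genes of liver macrophages, led by Cd5l, and -1.30 for 4 genes of the red pulp of the spleen, led by Hmox1. The vessel-wall genes took 0.00298% of reads in PDR and 0.00967% in SKYD, and the peritoneal genes 0.0472% and 0.120%. These lists share genes with those above. Cd163 and Mrc1 of the vessel-wall list are also among the 20 macrophage genes. Icam2, a partner gene, gave 6615 of the 10891 peritoneal reads in PDR and 13558 of the 30590 in SKYD.

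Markers of other cells were present beside the 9 genes. All 7 T cell genes were past 2-fold toward SKYD, against 6.91% of all tested genes. They took 0.0449% of reads in PDR and 0.277% in SKYD, with a median of -2.41 and Cd8b1 as the most abundant. The B cell genes went the other way. All 4 tested of 6 were past 2-fold toward PDR, against 7.38% of all tested genes. Their median was 2.49, they took 0.353% of reads in PDR and 0.0667% in SKYD, and Cd79b led them. Hepatocyte genes, led by Apoa2, were higher in PDR for 6 of 7, with 0.210% and 0.0677% of reads. The NK cell genes, led by Gzma, were all 4 higher in PDR of 5 listed, with 0.0304% and 0.0134%.

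Monocytes and neutrophils also carry CD11b. Of 6 monocyte genes, 4 were higher in PDR, at a median of 0.23 that became -0.07 when centred on Ptprc, and they took 1.15% of reads in PDR and 0.668% in SKYD. Chil3 had the highest mean FPKM of them, 2264 in PDR and 1245 in SKYD. Of 8 neutrophil genes, 6 were higher in PDR, at a median of 0.63, 0.334% of reads in PDR and 0.25% in SKYD, and S100a9 led them with 2209 and 1677 FPKM. The monocyte genes were not alike. Ly6c2 had a difference of 1.49, and Fn1 and F13a1 had differences of -1.78 and -0.84, all named after their values were seen. When centred on Ptprc, 3 of the 6 were higher and 3 were lower. Dendritic cell genes, led by Cd209a, had 4 of 6 tested and all 4 lower in PDR, with 0.00975% and 0.0333% of reads.

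Erythroid genes took 1.71% of reads in PDR and 2.21% in SKYD, with 4 of 6 lower in PDR and Hba-a1 leading. Platelet genes took 0.0197% and 0.105%, most of it from Pf4, which had 3690 and 26049 reads, while Gp1bb was at 0. Without Pf4 the platelet genes had 855 reads in PDR and 671 in SKYD, and 2 of the 3 tested genes were higher in PDR. The median of all 3 was 0.20, which became -0.10 when centred on Ptprc. Fibroblast genes took 0.00660% and 0.0248%, led by Dcn, the 1 tested of 5. Eosinophil genes, led by Prg2, took 0.00310% and 0.00282%, with Epx at 0, and mast cell and basophil genes, led by Cpa3, took 0.00176% and 0.00255%, with Mcpt4 at 0. Endothelial genes, led by Pecam1, took 0.00285% and 0.00184%. Of 4 smooth muscle genes, Tagln, Myh11 and Cnn1 had 0 reads in both libraries and Acta2 had 65 and 104, so the main cell type of the aortic wall left few reads.

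**Figure D5:**
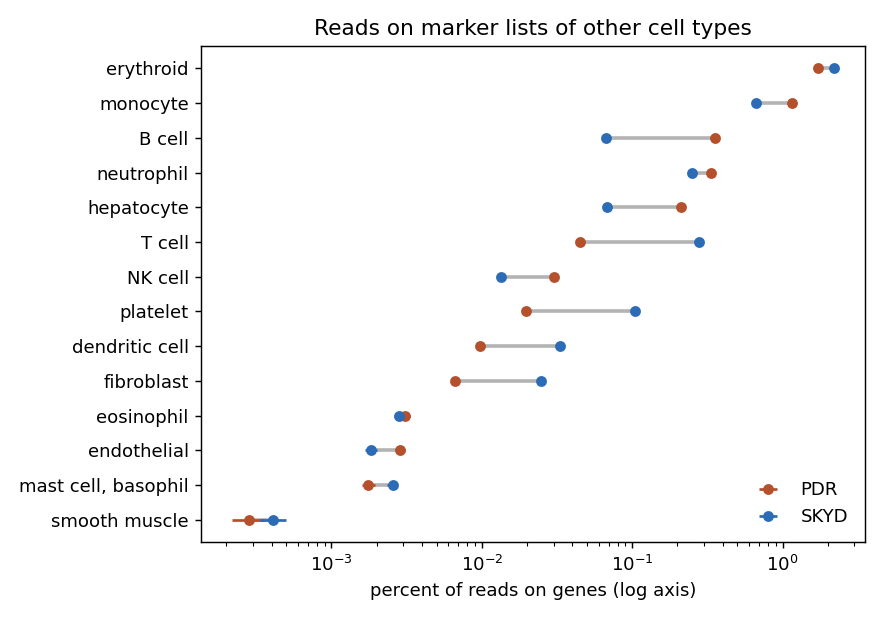
Percent of reads on genes taken by marker lists of 14 other cell types, on a log axis, with 1 point for each pooled library and exact 95% binomial intervals. B cell and hepatocyte lists are higher in PDR, and the T cell list is higher in SKYD, as is the platelet list through Pf4 alone.

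These lists differed between the same libraries as the 9 genes, and their part in the differences of the 9 genes was not tested. The 9 genes took 3.16% of reads in PDR and 5.67% in SKYD, and without Lyz2 the other 8 took 0.184% and 0.324%. The pan-leukocyte genes were not lower in PDR as a list. Of 5, 3 were higher and 2 were lower, with a median of 0.30, which is the value of Ptprc itself. They did not agree, with values from -0.81 for Laptm5 to 0.75 for Coro1a, and centring was done on Ptprc alone. Divided by Ptprc, 7 of the 9 genes were lower in PDR, with a median log2 difference of -0.90, against -0.32 for all tested genes, of which 16.5% were past 2-fold toward SKYD. As plain FPKM ratios, Itgam, Lyz2 and Cd14 were then past 2-fold. For Itgam this rests on the scale, since its value was -1.02 as a ratio and -0.94 on log2(FPKM + 1) centred on Ptprc. Csf1r was level, at 3 times Ptprc in PDR and 2.91 times in SKYD.

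The balance of all tested genes also rested on the scale. On FPKM, 767 genes were past 2-fold toward PDR and 719 toward SKYD, so that 51.6% of the genes past 2-fold were higher in PDR. When differences were centred on Ptprc, these numbers were 521 and 1214, or 30% higher in PDR, and the median of all tested genes was -0.31. Leaving immunoglobulin, T cell receptor and haemoglobin genes out of the library size moved that median to 0.10.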

How the data were processed

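The authors aligned reads with Bowtie 2.0.6 and TopHat 2.0.9, counted them per gene with HTSeq 0.6.1 and deposited FPKM for 54532 genes in 2 libraries. The processing notes name mm9, but 98.3% of 54409 shared genes have the start and end given by GENCODE M21 (GRCm38), so positions are read as GRCm38. FPKM times gene length is a whole multiple of 1 step in each column, and 100% of values above 0 gave whole reads within 0.001 of a read. The sizes behind FPKM were 23487992 (PDR) and 24993633 (SKYD). A count of 0 allows 3 reads, 1.3e-05% of reads in PDR and 1.18e-05% in SKYD.

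The comparison took log2(FPKM + 1) of genes whose mean FPKM was 1 or more, and past 2-fold means an absolute difference over 1. Intervals are at 95%. The genes and lists were chosen with earlier results of these data known, and 1 partner gene and 1 near gene that the rules gave were left out of the text. By the rule for names, the text gives the 9 genes, partner genes past 2-fold or with 10 FPKM or more on average, the 3 most abundant and 2 most different each way of the other macrophage genes, the leading gene of each other cell type, markers at 0 reads, and the 3 genes nearest to each sort marker. Steps were tested on simulated data. Values were computed in Python 3.11.15 with scipy 1.17.1, pandas 2.3.3 and numpy 2.4.6, and drawn with matplotlib 3.10.9. Raw reads and proteins were not examined.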

Additional observations from a re-analysis of the deposited data

How the results depend on the processing

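No paired analysis was possible because each group had 1 library. The differences of the 9 genes were recomputed with pseudocounts of 0.1 and 0.01, as TPM, with other library sizes, with trimmed mean scaling, and centred on the median of all tested genes or on Ptprc. Of 72 such values, 71 kept their sign, and the exception was Adgre1, at 0.02 without immunoglobulin, T cell receptor and haemoglobin genes in the library size. The number of the 9 genes past 2-fold was 2 when centred on Ptprc, with 16.7% of all tested genes. On log2(FPKM + 1), 3 of the 9 were past a threshold of 1.5-fold, with 30.2% of all tested genes. Their median was -0.53 with the sum of reads on genes as the size, -0.46 without the antigen receptor and haemoglobin genes, and -0.88 when centred on Ptprc. With Itgb2 as the divisor in place of Adgre1 or Itgam, the median log2 difference of the ratios was -0.36, and so had the other sign than with Itgam. Past 2-fold toward SKYD lay 1214 of all tested genes when centred on Ptprc. Where the mean FPKM had to be 5 or more, the numbers were 373 toward SKYD and 464 toward PDR, as fewer genes were tested. Among protein-coding genes, also fewer, they were 473 toward SKYD and 542 toward PDR. The cause of the other shifts was not tested. Depth limits Mertk and Itgam most among the 9 genes, and the spread between mice is unknown for all of them.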
